A study of Mus musculus with 18 samples.

Results

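The genes described here carry interleukin-6 (IL-6) family signalling: the ligands Lif, Il6, Il11 and Clcf1, the receptor chains Lifr, Osmr, Il6st and Il11ra1, the feedback inhibitor Socs3 and the transcription factor Stat3. These 10 genes were taken by name from the 55335 gene identifiers counted in each library, by their known roles in the pathway and with earlier results of these data known. All 18 libraries came from O9-1 cells, a wild-type mouse neural crest line, in osteoblast differentiation, and bulk RNA-seq counted the polyadenylated RNA of each whole culture. Cells given scramble siRNA and vehicle (Ctrl+vehicle), scramble siRNA and FGF2 (Ctrl+FGF2), or siRNA pools against Yap and Taz together with FGF2 (Y/T dKD+FGF2) were each sampled at d2.5 and d5, with 3 libraries per group and day. FGF2 is a growth factor that signals through ERK, and Yap and Taz are transcriptional coactivators of the Hippo pathway. No group had the siRNA against Yap and Taz without FGF2, so the knockdown was compared within FGF2-treated cells. The labels give the day as the batch, so time and batch cannot be told apart.

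Most IL-6 family ligands bind a receptor chain of their own and then recruit Il6st (gp130), the chain that most of the family shares. Janus kinases bound to these chains then phosphorylate Stat3, which enters the nucleus and switches on target genes, among them Socs3, whose protein binds gp130 and shuts the signal off. In the bone lineage, Lif, oncostatin M and Il11 act on osteoblasts and their precursors through Lifr, Osmr and Il11ra1, and Lif is also the factor long used to keep mouse embryonic stem cells undifferentiated. O9-1 cells are commonly expanded in medium with added LIF protein; whether the differentiation medium held any is not given in the sources used here, and added protein would not appear in RNA counts.

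Counts on genes were between 10377151 and 14698525 per library (median 12330911). Levels in CPM are counts scaled to each library's total, adjusted by a scaling factor per library (TMM). Yap1 fell with the knockdown from 129 ± 2.8 to 66.7 ± 2.4 CPM at d2.5 and from 153 ± 6.0 to 70.5 ± 3.4 CPM at d5. Wwtr1, the gene of Taz, fell from 222 ± 3.0 to 136 ± 6.0 and from 215 ± 2.9 to 124 ± 3.2 CPM. For both genes, values are mean ± SD (n = 3) and the edgeR adjusted p was between 4.92e-11 and 9.75e-17. Of 8 mesenchyme and neural crest markers, 7 were expressed in every library and Sox10, a defining neural crest gene, had no count in any. Of 6 leukocyte markers, Ptprc, Adgre1, Cd3e and Itgam had at most 2 counts in any library, Csf1r at most 22 and Cd68 at most 54.

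Promoter sequences are shown because Lif and Il11 rose together with FGF2 at d2.5, as described further on, and because Stat3 and Socs3 form the feedback end of the pathway. For 9 of the 10 genes, 12 promoter windows from RefSeq on GRCm38.p6 were searched, each running from 250 bases before to 50 bases after a start site. Of 32851 such windows of all genes, 7.81% held the AP-1 motif TGANTCA, 8.3% the STAT motif TTCNNNGAA and 14.7% the TEAD motif CATTCC, each searched on both strands. AP-1 is the Fos and Jun dimer that acts below ERK, STAT motifs are what Stat3 binds, and TEAD proteins are the DNA-binding partners of Yap and Taz. The AP-1 motif was in 4 of the 12 windows, those of Lif, Il6, Osmr and the second start site of Il11. With FGF2 at d2.5, Lif and Il11 rose, Osmr fell (log2 fold change -1.59) and Il6 was not tested. Whether these matches bear on the changes was not tested. The STAT motif was in 1 window, that of Socs3, and the TEAD motif was in 2, with 2 matches in that of Stat3 and 1 in the second of Il11ra1. No matches overlapped each other. The 250 bases before the start site are shown for the 3 ligands with an AP-1 match, for Socs3 and for Stat3, with each gene's matches in capitals (AP-1 in the ligands, STAT in Socs3, TEAD in Stat3). A match is a description of letters and not a measured binding site.
Lif, chr11:4257318-4257567, + strand: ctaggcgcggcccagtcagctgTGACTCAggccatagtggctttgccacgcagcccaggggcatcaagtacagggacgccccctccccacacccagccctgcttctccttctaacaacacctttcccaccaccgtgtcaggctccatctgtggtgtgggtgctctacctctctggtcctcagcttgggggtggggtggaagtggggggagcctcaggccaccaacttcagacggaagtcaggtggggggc
Il11, second start site, chr7:4778142-4778391, - strand: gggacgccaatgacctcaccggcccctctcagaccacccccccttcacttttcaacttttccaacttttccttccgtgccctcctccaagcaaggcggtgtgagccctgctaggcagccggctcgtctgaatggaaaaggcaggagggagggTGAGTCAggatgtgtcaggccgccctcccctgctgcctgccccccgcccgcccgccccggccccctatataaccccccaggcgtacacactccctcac
Il6, chr5:30012864-30013113, + strand: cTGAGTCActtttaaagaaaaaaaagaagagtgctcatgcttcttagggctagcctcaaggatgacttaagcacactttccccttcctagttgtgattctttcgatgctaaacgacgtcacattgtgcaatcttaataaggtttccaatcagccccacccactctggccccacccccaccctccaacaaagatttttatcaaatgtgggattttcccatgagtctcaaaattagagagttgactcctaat
Socs3, chr11:117969367-117969616, - strand: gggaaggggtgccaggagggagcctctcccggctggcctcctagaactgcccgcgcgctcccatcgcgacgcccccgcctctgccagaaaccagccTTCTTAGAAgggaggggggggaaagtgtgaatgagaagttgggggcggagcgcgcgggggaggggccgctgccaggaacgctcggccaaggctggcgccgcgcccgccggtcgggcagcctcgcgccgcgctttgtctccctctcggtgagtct
Stat3, chr11:100939541-100939790, - strand: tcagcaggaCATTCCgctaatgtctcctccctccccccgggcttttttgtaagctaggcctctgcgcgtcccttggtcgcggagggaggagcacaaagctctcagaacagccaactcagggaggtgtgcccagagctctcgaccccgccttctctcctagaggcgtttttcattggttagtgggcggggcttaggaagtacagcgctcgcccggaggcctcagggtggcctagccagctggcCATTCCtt

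The levels of the 10 genes differed widely. Per exon length, in TPM (length-scaled counts as a share of the library), the shared receptor chain Il6st was the highest in every group, from 70.2 ± 0.98 TPM in the d2.5 knockdown group to 226 ± 3.5 TPM in Ctrl+vehicle at d5. Stat3 (35.0 to 81.9 TPM), Socs3 (36.5 to 67.4 TPM) and Lifr (17.4 to 44.7 TPM) followed, as ranges of group means. Clcf1, at 10.6 to 19.3 TPM, was the ligand with the highest level in every group. Lif, at 0.959 to 7.37 TPM, Il11, at 0.261 to 2.41 TPM, and Il6, at 0.307 to 0.657 TPM, were low throughout. The receptor side of the family was thus read at high depth, with 8163 to 95809 counts over the 18 libraries for Lifr, Osmr and Il6st and 4678 for Il11ra1, while Lif had 874 counts, Il11 162 and Il6 64.

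**Figure D1:**
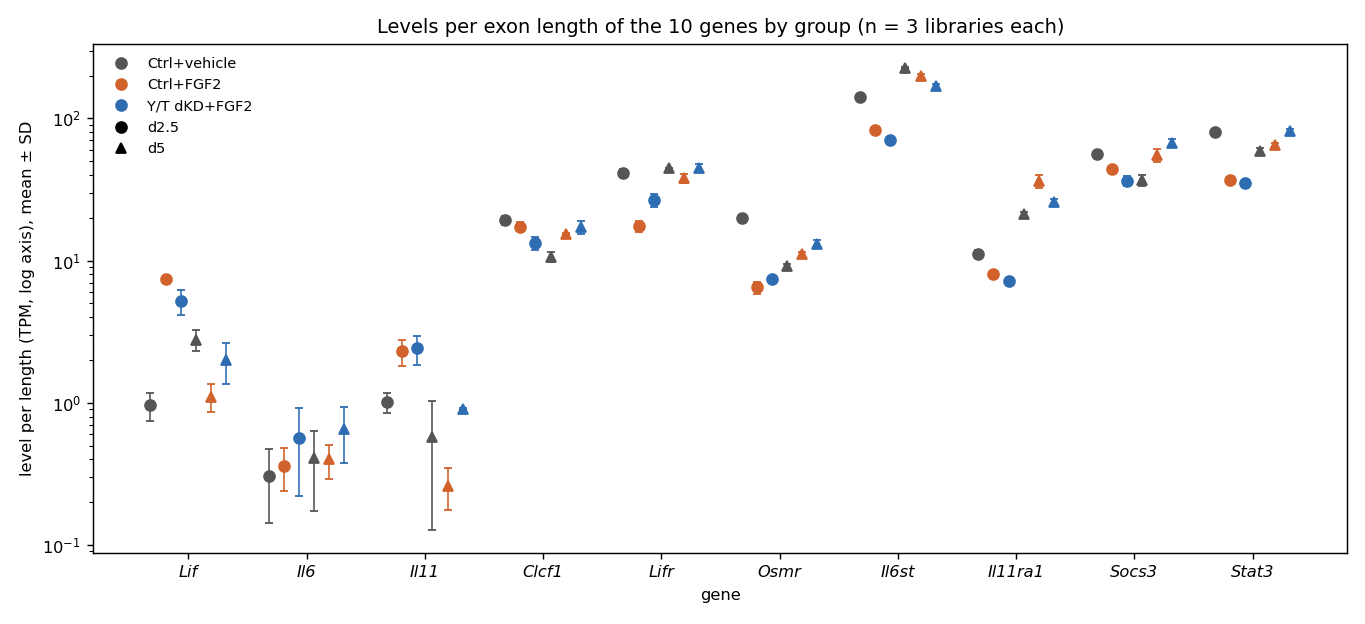
Level per exon length (TPM, log axis) of the 10 genes in 6 groups, as the mean and SD of 3 libraries, with circles for d2.5 and triangles for d5 and one colour per treatment. Il6st stood highest in every group, up to 226 TPM, and Il6, Il11 and Lif lay below 8 TPM.

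FGF2 raised Lif at d2.5 and lowered most of the receptors and Stat3 at the same time. Of the 9 genes tested, 2 were higher and 6 lower in Ctrl+FGF2 than in Ctrl+vehicle at an adjusted p under 0.05, the threshold used throughout. Of the 2 higher, Lif and Il11, the latter passed the filter for low counts only through FGF2-treated libraries. FGF2 changed most genes at d2.5: of the 13677 genes tested, 67.6% passed, 33.5% higher and 34.1% lower. The median absolute log2 fold change was 1.09 over the 9 genes and 0.35 over all genes.

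Lif, the ligand of the Lifr and gp130 receptor pair, stood at 1.31, 0.839 and 1.08 CPM in the 3 Ctrl+vehicle libraries and at 8.10, 8.88 and 8.76 CPM in the 3 Ctrl+FGF2 libraries at d2.5. In the Y/T dKD+FGF2 libraries the values were 7.04, 4.74 and 6.48 CPM. Every Ctrl+FGF2 library thus lay above every Ctrl+vehicle library by a wide margin, and the knockdown libraries lay between the other groups without overlap. The rise with FGF2 was 7.88-fold (log2 fold change 2.98 ± 0.19 SE, edgeR adjusted p = 8.87e-15), the 80th largest rise of the 13677 genes. The knockdown lowered Lif to 70.3% of Ctrl+FGF2 (log2 fold change -0.51 ± 0.14, adjusted p = 0.00607), which left it 5.54-fold above Ctrl+vehicle (2.47 ± 0.21, adjusted p = 6.52e-12). This knockdown call did not hold with DESeq2 (adjusted p = 0.0581) or without Y/T dKD+FGF2 replicate 2, the lowest of its group (log2 fold change -0.36, adjusted p = 0.0615). Both comparisons share the Ctrl+FGF2 libraries.

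At d5 the order of Lif was turned round. It was 3.02, 3.0 and 3.95 CPM in Ctrl+vehicle, 1.56, 1.30 and 0.988 CPM in Ctrl+FGF2 and 3.06, 1.58 and 2.34 CPM in Y/T dKD+FGF2. All Ctrl+FGF2 libraries were below all Ctrl+vehicle libraries, and the knockdown libraries lay above Ctrl+FGF2 and overlapped Ctrl+vehicle. FGF2 lowered Lif to 39.1% of Ctrl+vehicle (log2 fold change -1.35 ± 0.27, adjusted p = 0.000466). The knockdown raised it 1.80-fold over Ctrl+FGF2 (0.84 ± 0.29, adjusted p = 0.0333), and against Ctrl+vehicle the log2 fold change was -0.51 ± 0.24 (adjusted p = 0.0966). The knockdown call at d5 rests on few reads, 44 in Ctrl+FGF2 and 78 with the knockdown. It was lost with DESeq2 (adjusted p = 0.101) and in 4 of the 9 fits that left out 1 library: without Ctrl+FGF2 replicate 2 (0.86, adjusted p = 0.0662) or replicate 3 (0.70, adjusted p = 0.13), and without Y/T dKD+FGF2 replicate 1 (0.57, adjusted p = 0.204) or replicate 3 (0.84, adjusted p = 0.074). Without Y/T dKD+FGF2 replicate 1, the difference from Ctrl+vehicle passed the threshold (-0.78, adjusted p = 0.029).

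Tested in 1 fit of all 18 libraries, the FGF2 effect on Lif was lower at d5, with a difference of -4.36 ± 0.34 on the log2 scale (d5 minus d2.5, adjusted p = 3.19e-12), which placed Lif 25th of 14198 genes from the most negative difference. The knockdown effect differed between days in the other direction, by 1.35 ± 0.32 (adjusted p = 0.00267). Over the 6 groups, Lif was highest in Ctrl+FGF2 at d2.5 (8.58 ± 0.42 CPM) and lowest in Ctrl+vehicle at d2.5 (1.08 ± 0.24 CPM), a 7.96-fold span. Of neighbouring groups in that order, Ctrl+vehicle and Y/T dKD+FGF2 at d5 overlapped, as did Ctrl+FGF2 at d5 and Ctrl+vehicle at d2.5.

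**Figure D2:**
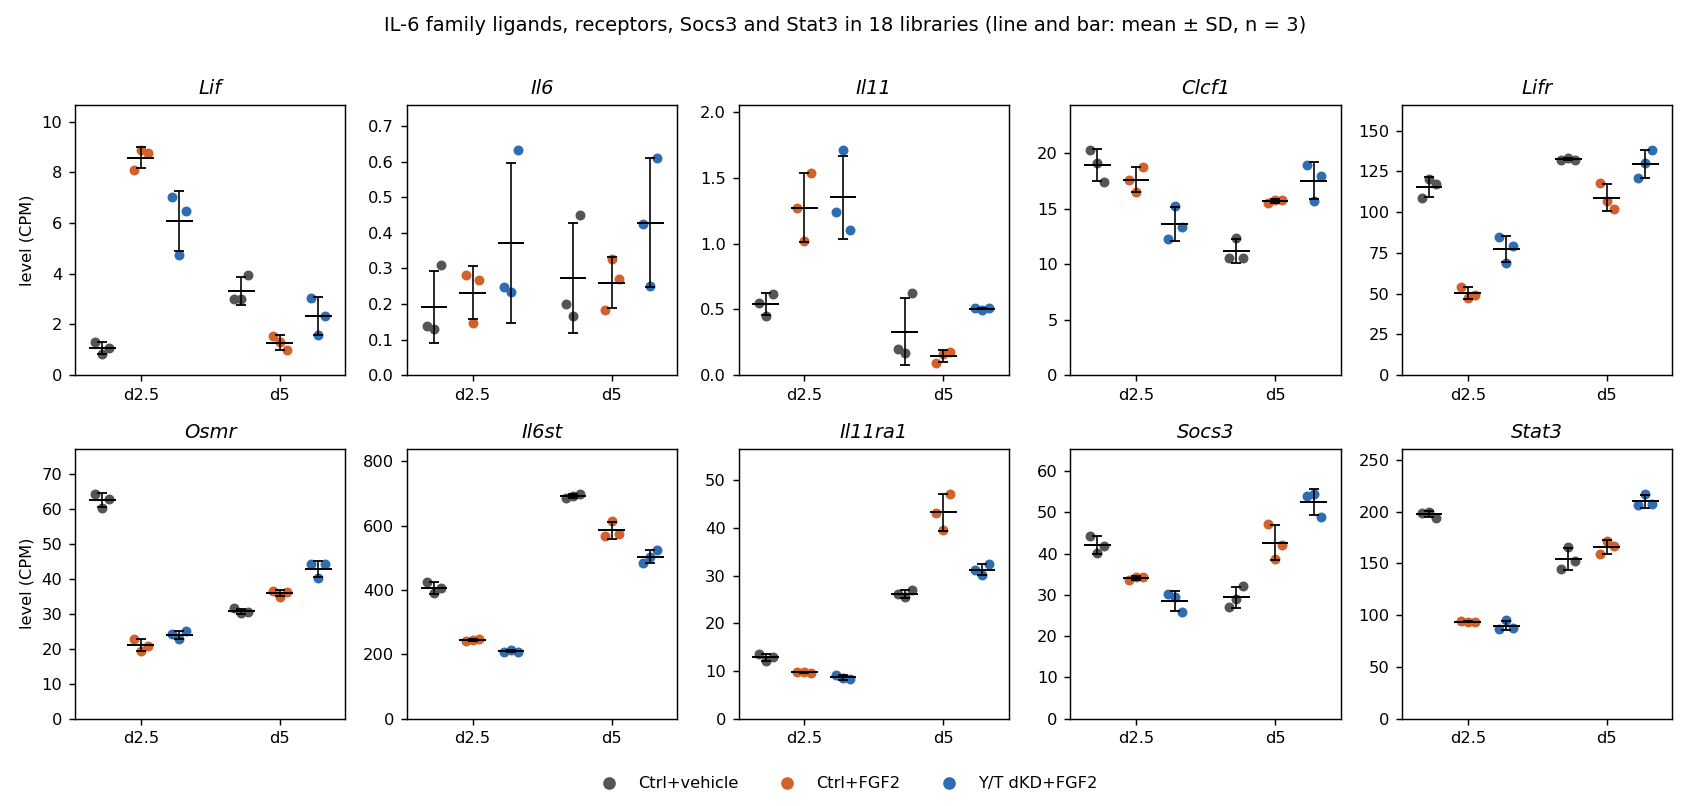
Level (CPM) of each gene in each of the 18 libraries, with the mean and SD of 3 libraries per group; the 3 groups of each day stand side by side and the vertical axes differ between genes. Lif was up to 8.88 CPM in Ctrl+FGF2 at d2.5 and no higher than 1.56 CPM in the same treatment at d5, whereas Il6st, Lifr and Il11ra1 were higher at d5 than at d2.5 in each treatment.

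Il11, a ligand that uses Il11ra1 and gp130, rose with FGF2 at d2.5 as Lif did, at lower counts. Its libraries had 8, 7 and 8 counts in Ctrl+vehicle, 18, 14 and 23 in Ctrl+FGF2 and 15, 22 and 14 in Y/T dKD+FGF2. The FGF2-treated libraries of either kind were above all Ctrl+vehicle libraries and overlapped each other. Il11 was 2.35-fold higher with FGF2 (log2 fold change 1.23 ± 0.34, adjusted p = 0.00182). It passed the filter for low counts only through the FGF2-treated libraries, where it was higher. Over the other settings that kept Il11, among them no filter, the adjusted p was 0.0014 to 0.024 (edgeR or DESeq2). Y/T dKD+FGF2 against Ctrl+FGF2 gave 0.07 ± 0.28 (adjusted p = 0.886), a value whose sign turned when single libraries were left out (-0.14 to 0.23).

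At d5 Il11 had 2, 2 and 7 counts in Ctrl+vehicle, 1, 2 and 2 in Ctrl+FGF2 and 6, 6 and 5 in Y/T dKD+FGF2, too few to pass the filter for a test on that day. Its counts were lowest in Ctrl+FGF2, and the knockdown libraries lay above those without overlap. The ratio of Y/T dKD+FGF2 to Ctrl+FGF2 was 3.47 (95% interval 1.23 to 12, counting error only), and without a filter the edgeR log2 fold change was 1.72 (adjusted p = 0.0859). Il11 was tested in the fit of 18 libraries, which it entered only through the FGF2-treated libraries of d2.5, where it was highest. In that fit the FGF2 effect was lower at d5, with a difference of -2.38 ± 0.75 (adjusted p = 0.00732). That call rested on Ctrl+vehicle replicate 3 at d5 (without it -1.55, adjusted p = 0.198). The difference of the knockdown effect between days was 1.65 ± 0.67 (adjusted p = 0.0808).

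Clcf1, a ligand that binds Cntfr together with Lifr and gp130, was the ligand with the most reads and moved little with FGF2 at d2.5. It stood at 20.3, 19.1 and 17.5 CPM in Ctrl+vehicle, 17.6, 16.5 and 18.8 CPM in Ctrl+FGF2 and 12.3, 15.2 and 13.3 CPM in Y/T dKD+FGF2. The first 2 groups overlapped and all knockdown libraries were below both. FGF2 gave a log2 fold change of -0.12 ± 0.09 (adjusted p = 0.232), and the knockdown lowered Clcf1 to 76.8% of Ctrl+FGF2 (-0.38 ± 0.09, adjusted p = 0.00296). At d5 Clcf1 rose with FGF2 from 11.2 ± 1.1 to 15.7 ± 0.16 CPM (0.50 ± 0.10, adjusted p = 0.000714), and the knockdown gave 0.15 ± 0.10 (adjusted p = 0.26). Both effects differed between days, by 0.59 ± 0.14 for FGF2 (adjusted p = 0.000403) and by 0.53 ± 0.13 for the knockdown (adjusted p = 0.00462).

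Il6, the ligand that names the family, was close to the limit of detection, with 2 to 8 counts in each library at d2.5 and 2 to 6 at d5. It passed no filter and was not tested. Over 3 libraries it had 8 counts in Ctrl+vehicle, 10 in Ctrl+FGF2 and 14 with the knockdown at d2.5, and 9, 9 and 14 at d5. The ratio of Ctrl+FGF2 to Ctrl+vehicle was 1.25 at d2.5 (95% interval 0.444 to 3.65) and 0.965 at d5 (0.339 to 2.74), so no difference was detectable at this depth. The ratios for the knockdown, 1.60 and 1.59, had intervals of 0.66 to 4.02 and 0.64 to 4.16.

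The receptor chains fell with FGF2 at d2.5. Fewer cells of a type with a receptor and less RNA per cell cannot be told apart in bulk libraries. Lifr, the chain that Lif binds first, stood at 109, 121 and 117 CPM in Ctrl+vehicle, 54.2, 47.2 and 49.3 CPM in Ctrl+FGF2 and 84.5, 68.6 and 79.3 CPM in Y/T dKD+FGF2. The 3 groups did not overlap, with the knockdown libraries between the others. FGF2 lowered Lifr to 43.1% of Ctrl+vehicle (log2 fold change -1.21 ± 0.06, adjusted p = 5.16e-18), and the knockdown raised it 1.53-fold over Ctrl+FGF2 (0.61 ± 0.06, adjusted p = 1.22e-08), still at 66.0% of Ctrl+vehicle (-0.60 ± 0.06, adjusted p = 4.50e-11). Lifr was the single gene of the family that passed the threshold as higher with the knockdown at d2.5.

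At d5 Lifr kept the same order with smaller steps. It was 132, 133 and 132 CPM in Ctrl+vehicle, 118, 107 and 102 CPM in Ctrl+FGF2 and 121, 130 and 138 CPM in Y/T dKD+FGF2. The Ctrl+FGF2 libraries lay below all others, and the knockdown libraries spanned the Ctrl+vehicle values. FGF2 gave -0.27 ± 0.05 (adjusted p = 0.000414), the knockdown 0.25 ± 0.05 (adjusted p = 0.00167), and both together, relative to Ctrl+vehicle, -0.03 ± 0.05 (adjusted p = 0.738). Both effects were smaller at d5 than at d2.5, with differences of 0.92 ± 0.09 for FGF2 (adjusted p = 4.16e-10) and -0.37 ± 0.09 for the knockdown (adjusted p = 0.00402).

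Osmr, the oncostatin M chain that also pairs with gp130, had the largest fall with FGF2 of the 9 genes at d2.5. It stood at 64.3, 60.3 and 62.8 CPM in Ctrl+vehicle, 22.8, 19.3 and 20.9 CPM in Ctrl+FGF2 and 24.2, 22.8 and 25.1 CPM in Y/T dKD+FGF2. The FGF2-treated libraries of both kinds were far below Ctrl+vehicle and close to each other. Osmr fell to 33.3% of Ctrl+vehicle (-1.59 ± 0.06, adjusted p = 2.16e-20). The knockdown effect of 0.19 ± 0.07 missed the threshold (adjusted p = 0.0615) and passed it with RLE factors (adjusted p = 0.0488), with all 18 libraries in 1 fit (adjusted p = 0.0466) and without Ctrl+FGF2 replicate 1 (0.25, adjusted p = 0.0283). At d5 Osmr moved the other way and rose in steps without overlap, from 30.1 to 31.6 CPM in Ctrl+vehicle to 34.9 to 36.6 CPM in Ctrl+FGF2 and 40.1 to 44.2 CPM in Y/T dKD+FGF2. Those steps were 0.24 ± 0.06 for FGF2 (adjusted p = 0.00451) and 0.25 ± 0.06 for the knockdown (adjusted p = 0.00397). The FGF2 effect differed between days by 1.80 ± 0.09 (adjusted p = 1.02e-16) and the knockdown effect by 0.06 ± 0.09 (adjusted p = 0.732). Osmr and Lifr are neighbours on chromosome 15, 215.6 kb apart on opposite strands (GRCm38, 6813577 to 6874969 for Osmr and 7090614 to 7197489 for Lifr).

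Il6st, the shared gp130 chain, fell in the same order on both days. At d2.5 it was 426, 389 and 406 CPM in Ctrl+vehicle, 242, 244 and 249 CPM in Ctrl+FGF2 and 208, 214 and 208 CPM in Y/T dKD+FGF2. At d5 it was 687, 692 and 700 CPM, then 568, 615 and 573 CPM, then 485, 502 and 524 CPM in the same order. On neither day did any groups overlap, and the lowest d5 library was above the highest d2.5 library. FGF2 lowered Il6st to 59.8% of Ctrl+vehicle at d2.5 (-0.74 ± 0.03, adjusted p = 1.66e-18) and to 85.2% at d5 (-0.23 ± 0.04, adjusted p = 7.65e-05). The knockdown lowered it further, to 85.1% of Ctrl+FGF2 at d2.5 (-0.23 ± 0.04, adjusted p = 1.20e-05) and to 85.7% at d5 (-0.22 ± 0.04, adjusted p = 0.000225), and the difference of that effect between days was 0.01 ± 0.05 (adjusted p = 0.948). Il6st was thus lower with FGF2 and lower again with the knockdown, whereas Lifr was lower with FGF2 and higher with the knockdown, on both days.

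Il11ra1, the chain that Il11 binds, changed direction between days. It was 12.8 ± 0.74 CPM in Ctrl+vehicle, 9.70 ± 0.08 CPM in Ctrl+FGF2 and 8.63 ± 0.43 CPM with the knockdown at d2.5, and 26.1 ± 0.76, 43.2 ± 3.8 and 31.2 ± 1.1 CPM at d5. The libraries of the 3 groups did not overlap on either day. FGF2 lowered it at d2.5 (-0.41 ± 0.10, adjusted p = 0.000373) and raised it at d5 (0.74 ± 0.07, adjusted p = 1.86e-07), a difference of 1.12 ± 0.11 (adjusted p = 8.37e-10). The knockdown effect was -0.18 ± 0.11 at d2.5 (adjusted p = 0.233) and -0.47 ± 0.07 at d5 (adjusted p = 3.74e-05), and its difference between days of -0.30 ± 0.12 missed the threshold (adjusted p = 0.0825) except without Ctrl+FGF2 replicate 2 of d5 (-0.36, adjusted p = 0.0329). Il11ra1 has near-identical copies in the mouse genome and overlaps Galt on the same strand, so reads that fit several places were not counted and its level is uncertain. Its copy Il11ra2 had no count in any library.

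**Figure D3:**
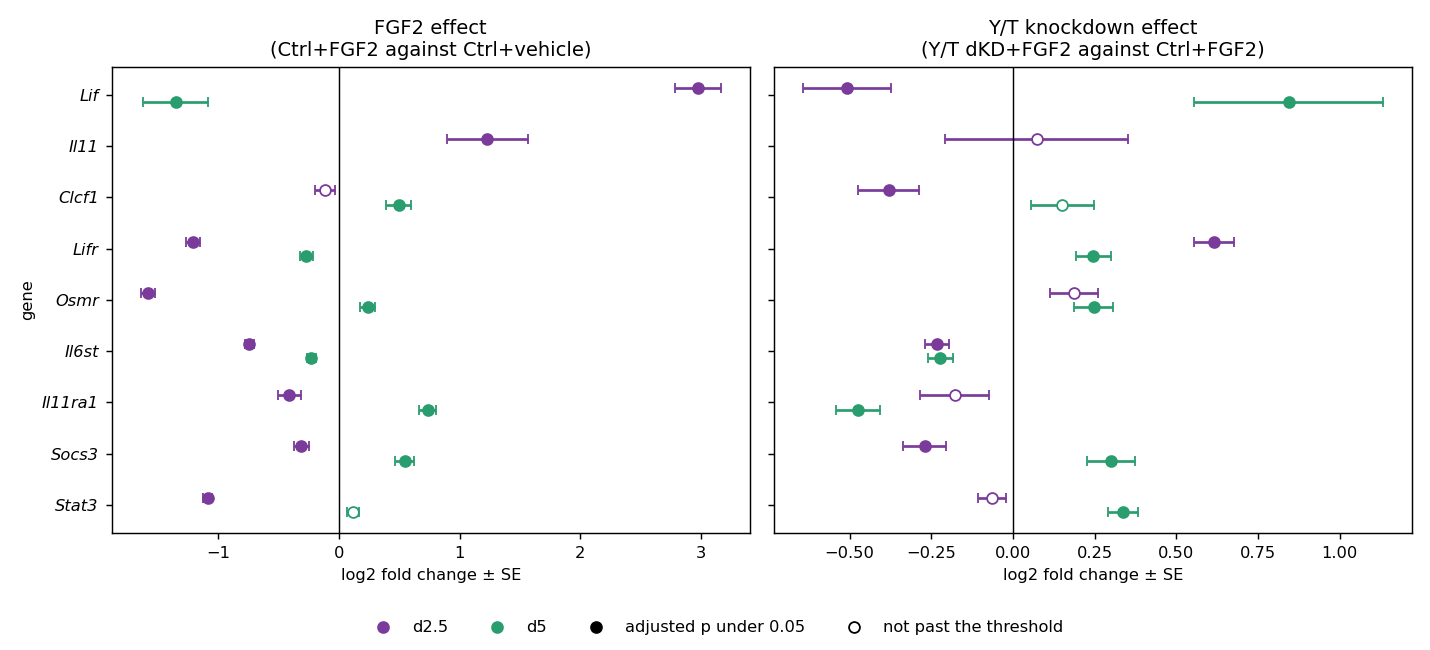
Log2 fold change with its SE for 9 genes (8 at d5, since Il11 was not tested there), on the left for Ctrl+FGF2 against Ctrl+vehicle and on the right for Y/T dKD+FGF2 against Ctrl+FGF2, at d2.5 and d5; filled points passed an adjusted p of 0.05. For FGF2, Lif lay at 2.98 at d2.5 and at -1.35 at d5, and Osmr at -1.59 and 0.24; for the knockdown, Lifr lay at 0.61 and 0.25.

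Stat3, the transcription factor that the receptors activate, fell with FGF2 at d2.5. It stood at 198, 200 and 194 CPM in Ctrl+vehicle, 93.9, 93.0 and 93.7 CPM in Ctrl+FGF2 and 86.8, 95.4 and 87.6 CPM in Y/T dKD+FGF2. The FGF2-treated groups overlapped and both were below Ctrl+vehicle. FGF2 lowered Stat3 to 47.0% of Ctrl+vehicle (-1.09 ± 0.04, adjusted p = 3.33e-21), and the knockdown gave -0.06 ± 0.04 (adjusted p = 0.288).

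At d5 Stat3 was 145, 166 and 152 CPM in Ctrl+vehicle, 159, 171 and 167 CPM in Ctrl+FGF2 and 206, 217 and 207 CPM in Y/T dKD+FGF2. All knockdown libraries were above the others, which overlapped. The knockdown raised Stat3 1.26-fold (0.34 ± 0.05, adjusted p = 2.17e-05), and FGF2 gave 0.11 ± 0.05 (adjusted p = 0.0552), which passed the threshold with upper-quartile factors (0.14, adjusted p = 0.0223), with at least 10 counts in every library (0.12, adjusted p = 0.0476) and without Ctrl+vehicle replicate 2 (0.17, adjusted p = 0.00633) or Ctrl+FGF2 replicate 1 (0.14, adjusted p = 0.0237). Both effects differed between days, by 1.18 ± 0.06 for FGF2 (adjusted p = 6.88e-16) and by 0.40 ± 0.06 for the knockdown (adjusted p = 3.86e-05).

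Socs3, the feedback inhibitor whose RNA is itself induced by Stat3, passed the threshold for FGF2 and for the knockdown on both days. At d2.5 it was 44.3, 40.0 and 41.8 CPM in Ctrl+vehicle, 33.5, 34.4 and 34.4 CPM in Ctrl+FGF2 and 30.1, 29.5 and 25.7 CPM in Y/T dKD+FGF2. At d5 it was 27.0, 28.9 and 32.1 CPM, then 47.1, 38.7 and 42.0 CPM, then 54.0, 54.5 and 48.9 CPM in the same order. On each day no groups overlapped, and the order at d5 was the reverse of that at d2.5. FGF2 lowered Socs3 to 80.5% of Ctrl+vehicle at d2.5 (-0.31 ± 0.06, adjusted p = 3.36e-05) and raised it 1.46-fold at d5 (0.54 ± 0.08, adjusted p = 2.39e-05). The knockdown lowered it at d2.5 (-0.27 ± 0.07, adjusted p = 0.00275) and raised it at d5 (0.30 ± 0.07, adjusted p = 0.00437). The differences between days were 0.83 ± 0.10 for FGF2 (adjusted p = 4.54e-08) and 0.57 ± 0.10 for the knockdown (adjusted p = 0.000148).

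Counted over the family, the knockdown at d2.5 left 1 gene higher (Lifr) and 4 lower (Lif, Clcf1, Il6st and Socs3) of 9 tested, against 10.8% higher and 13.6% lower, 24.5% in all, of 13677 genes. Relative to Ctrl+vehicle, the d2.5 knockdown libraries had 2 genes higher (Lif and Il11) and 7 lower, all 9 called, with 34.1% higher and 35.7% lower, 69.8% in all, among all genes. Il11 was tested there only through the FGF2-treated libraries. The family's median log2 fold change was -0.41 for FGF2, -0.18 for the knockdown and -0.59 for both together at d2.5, while the median of all genes was between -0.01 and 0.002.

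At d5, FGF2 left 4 of 8 tested genes higher (Clcf1, Osmr, Il11ra1 and Socs3) and 3 lower (Lif, Lifr and Il6st), with 23.5% higher and 23.7% lower, 47.2% in all, of 13304 genes. The knockdown at d5 left 5 higher (Lif, Lifr, Osmr, Socs3 and Stat3) and 2 lower (Il6st and Il11ra1), against a background of 15.6% higher and 16.1% lower, 31.7% in all. Relative to Ctrl+vehicle, the d5 knockdown libraries had 5 higher (Clcf1, Osmr, Il11ra1, Socs3 and Stat3) and 1 lower (Il6st), where 20.7% of all genes were higher and 21.1% lower, 41.8% in all. The family's median log2 fold changes at d5 were 0.18 for FGF2 and 0.25 for the knockdown, and the medians of all genes were 0.02 and 0.003.

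The FGF2 effect differed between days for all 9 genes tested, lower at d5 for Lif and Il11 and higher at d5 for the other 7, the receptors, Clcf1, Socs3 and Stat3. Il11 entered this fit only through the FGF2-treated libraries of d2.5, and its call rested on a single library. Among all 14198 genes 60.9% differed, 31.8% higher and 29.1% lower. The knockdown effect differed for 5 genes, higher at d5 for Lif, Clcf1, Socs3 and Stat3 and lower for Lifr, where 20.9% of all genes differed, 11.6% higher and 9.35% lower.

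Between days, 8 of the 9 genes differed in Ctrl+vehicle (66.4% of all genes), 8 in Ctrl+FGF2 (80% of all genes) and 9 in Y/T dKD+FGF2 (78.4% of all genes). Il11, counted in both FGF2-treated groups, entered the fit only through their d2.5 libraries. Lif was 3.08-fold higher at d5 in Ctrl+vehicle (1.62 ± 0.26, adjusted p = 2.95e-06) and fell to 15.1% of its d2.5 level in Ctrl+FGF2 (-2.73 ± 0.21, adjusted p = 5.41e-13). Il6st and Il11ra1 were higher at d5 in all 3 treatments, Il6st by 0.77, 1.26 and 1.26 and Il11ra1 by 1.03, 2.15 and 1.85 on the log2 scale, with vehicle, with FGF2 and with FGF2 and the knockdown. Osmr fell by 1.03 in Ctrl+vehicle, where Socs3 fell by 0.51 and Stat3 by 0.35, and all 3 rose between days in both FGF2-treated groups. The rise of Lifr in Ctrl+vehicle (0.20 ± 0.06, adjusted p = 0.00511) was lost with upper-quartile factors (0.10, adjusted p = 0.121). Since the day is also the batch, the share of time in these differences cannot be told apart.

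The further ligands of the family were mostly silent. Osm, the oncostatin M gene, lies 16.5 kb from Lif on chromosome 11 and had no count in any of the 18 libraries, which allows a level of up to 0.0134 CPM (3 counts over all libraries). Ctf2 and Il27 also had none, Ebi3 had 1 and Cntf 49 in all. Ctf1, cardiotrophin 1, rose with FGF2 at d5 (1.15 ± 0.27, adjusted p = 0.00169) and fell with the knockdown (-0.84 ± 0.25, adjusted p = 0.017), the latter lost without Y/T dKD+FGF2 replicate 1 (adjusted p = 0.0938).

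Among the other receptors, Il31ra, Csf3r and Cntfr had 1, 1 and 2 counts in all. Il6ra, the chain that binds Il6, rose with FGF2 at d2.5 from 7.88 ± 0.28 to 21.6 ± 1.8 CPM (1.44 ± 0.09, adjusted p = 5.12e-15), opposite to Lifr, Osmr, Il6st and Il11ra1. At d5 the log2 fold change did not pass (0.07 ± 0.11, adjusted p = 0.625), and the difference between days was -1.39 ± 0.15 (adjusted p = 4.16e-09). Lepr, the leptin receptor, was at most 0.352 CPM in any library at d2.5 and at d5 stood at 3.48 ± 0.49, 2.28 ± 0.21 and 6.78 ± 0.49 CPM. It was higher with the knockdown (1.57 ± 0.17, adjusted p = 1.11e-06), while its fall with FGF2 (-0.61 ± 0.19, adjusted p = 0.0143) was lost with DESeq2 (adjusted p = 0.079) and without Ctrl+vehicle replicate 2, Ctrl+vehicle replicate 3 or Ctrl+FGF2 replicate 2 (adjusted p = 0.0532, 0.0538 and 0.052).

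Of 10 Janus kinase and Stat genes other than Stat3, 9 were tested at d2.5, and with FGF2 6 were lower and none higher there, where 34.1% of all genes were lower and 33.5% higher. Among them were Stat5a (-1.19), Stat2 (-0.76) and Jak2 (-0.59). At d5 with FGF2 5 of 9 were higher and none lower (23.5% and 23.7% of all genes), led by Jak3 (0.71), Stat5a (0.69) and Tyk2 (0.34). The call of Jak2 among these 5 (0.11, adjusted p = 0.0476) was lost in 7 of the 9 fits without 1 library, with an adjusted p of up to 0.207, and with DESeq2 (adjusted p = 0.177). Stat5a, which lies beside Stat3 and overlaps it on the opposite strand, thus changed direction between days with FGF2, a difference of 1.85 ± 0.11 (adjusted p = 1.18e-14). The knockdown left 1 higher and 2 lower at d2.5, the latter Jak3 (-0.29), whose replicates overlapped, and Stat6 (-0.17), whose replicates did not, and 4 lower at d5, Stat5a (-0.37), Stat5b (-0.32), Stat2 (-0.25) and Jak1 (-0.15, lost without Ctrl+FGF2 replicate 2 or 3). Among all genes the knockdown left 24.5% called at d2.5 and 31.7% at d5.

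Inhibitors of the pathway other than Socs3 were mixed. Of 15 tested at d2.5, 8 were higher and 4 lower with FGF2 (67.6% of all genes called), with Ptpn6 (0.64), Socs5 (0.59) and Socs2 (0.58, adjusted p = 0.0557 with DESeq2) higher and Cish (-0.62) lower. Of 14 tested at d5, 5 were higher and 3 lower (47.2% of all genes called), with Cish (0.73), Socs6 (0.36) and Pias1 (0.35) higher and Socs4 (-0.29) lower. The knockdown left 1 higher and 3 lower on each day, of 15 and 14 tested, beside 24.5% and 31.7% of all genes called. Socs2 fell with it at d5 (-0.81 ± 0.09, adjusted p = 2.09e-06), and Socs1 fell with it at d2.5 (-0.74 ± 0.17, adjusted p = 0.00157).

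Genes that Stat3 is known to activate split in both directions. Of 15 tested at d2.5, 7 were higher and 6 lower with FGF2 (median log2 fold change -0.05, 67.6% of all genes called), with Myc (1.35), Klf4 (1.11) and Bcl2l1 (0.97) higher and Junb (-0.96) lower. The acute-phase gene Hp (-4.01) and Lcn2 (1.54), both below the level the naming rule asks for, had the largest changes of the list in either direction. Of 14 tested at d5, 5 were higher and 4 lower (median 0.14, 47.2% of all genes called), with Klf4 (-0.93) and Myc (-0.81) now lower and Cebpd (0.92) and Junb (0.67) higher. With the knockdown, 1 was higher and 8 lower of 15 at d2.5 (median -0.21, 24.5% of all genes called), led by Cebpd (-0.87), and 8 were higher and 4 lower of 14 at d5 (median 0.27, 31.7% of all genes called), with Timp1 (0.96), Bcl3 (0.74), Junb (0.60) and Myc (0.58) higher and Hp, again at a low level, at 1.24.

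**Figure D4:**
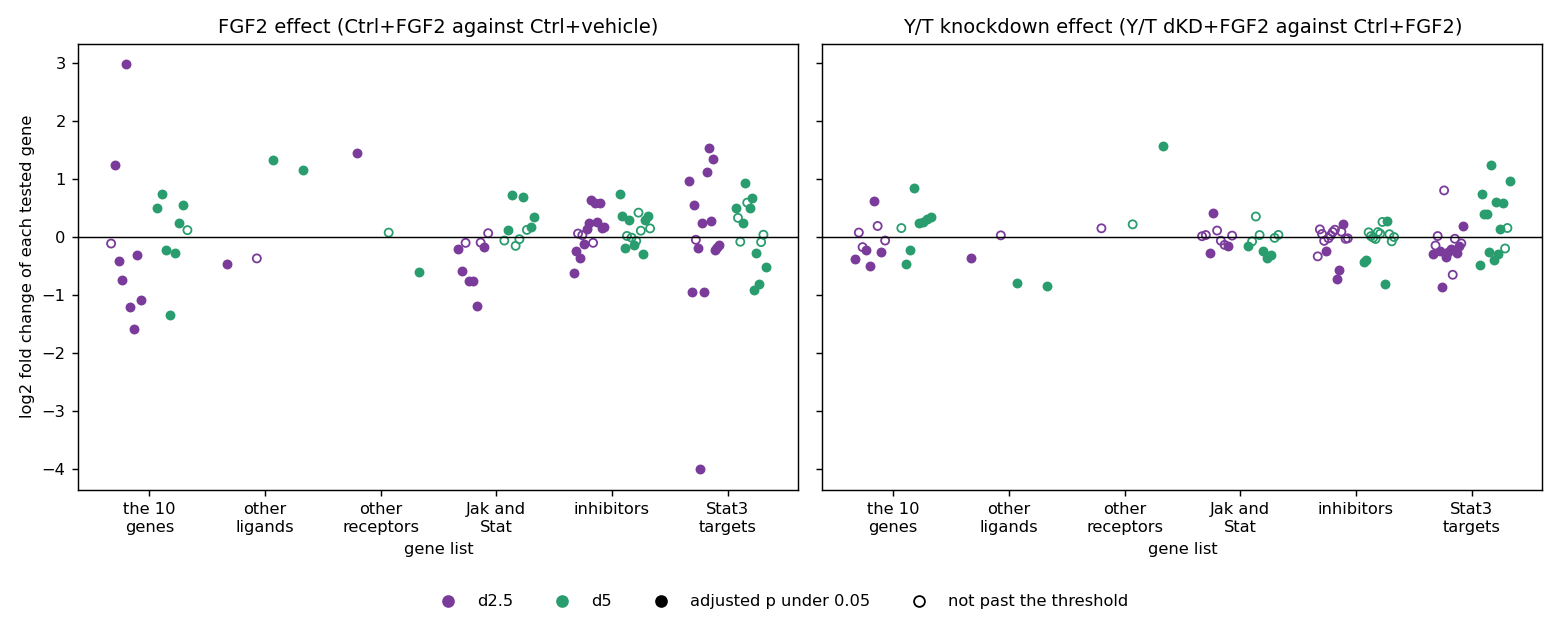
Log2 fold change of every tested gene in the 10-gene set and in 5 lists of other pathway genes, for FGF2 (left) and for the knockdown (right) at d2.5 and d5; filled points passed an adjusted p of 0.05. With FGF2 the Jak and Stat genes lay mostly below 0 at d2.5 and above 0 at d5, and the Stat3 target genes lay on both sides on both days.

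The genes whose levels over the 18 libraries were most like those of Lif were Pde3b (Pearson r of log2 CPM 0.948), Ung (0.943), 2610021A01Rik (0.943), C1ql3 (0.940) and Slc25a37 (0.936), of 11730 genes compared. The 18 libraries are 6 groups of 3, so these values describe a shared order of group means rather than 18 separate points.

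RNA of genes used as markers of other cell types was low and moved with some of these comparisons. Whether such cells were present was not tested. At d2.5 the summed level of 4 epithelial markers was 4.41 to 5.62 CPM in the Ctrl+vehicle libraries and 1.20 to 2.40 CPM in the FGF2-treated ones, with Krt14 alone at a mean of 4.40 CPM in Ctrl+vehicle and 0.144 CPM in Ctrl+FGF2. Epcam, the other epithelial marker tested, rose with FGF2 at d2.5 from 0.255 to 1.13 CPM (2.08 ± 0.42, adjusted p = 6.41e-05). The 5 endothelial markers summed to 2.78 to 3.87 CPM in Ctrl+vehicle at d2.5 and to at most 1.93 CPM elsewhere, with Cdh5 at 0 counts in every library. These sums were almost all Pecam1 (374 counts over 18 libraries, with Tek next at 7). Pecam1, the only endothelial marker tested, fell with FGF2 at d2.5 (-1.55) and rose with it at d5 (1.40). The 6 leukocyte markers summed to between 0.911 and 5.5 CPM, highest with the knockdown at d5 (4.40 to 5.5 CPM, of which Cd68 had a mean of 4.33 CPM), with Cd3e and Itgam at 0 throughout. Csf1r fell with FGF2 at d2.5 from 1.27 to 0.210 CPM (-2.57 ± 0.45, adjusted p = 7.42e-06). Cd68, the other leukocyte marker tested there, did not pass the threshold. The 6 osteoblast markers, made by the cells the culture turns into, summed to 13247 to 13407 CPM in Ctrl+vehicle and 2163 to 2426 CPM in the FGF2-treated libraries at d2.5, and to 31098 to 33113 CPM in Ctrl+vehicle, 15858 to 17613 CPM in Ctrl+FGF2 and 21893 to 23256 CPM in Y/T dKD+FGF2 at d5. These sums were almost all Col1a1 (a mean of 12636 CPM in Ctrl+vehicle at d2.5), and the single markers differed. With FGF2 all 5 tested fell at d2.5, and at d5 Runx2 (0.40) and Sp7 (0.32) rose while Alpl, Col1a1, Ibsp and Bglap fell. With the knockdown at d2.5 Sp7 (0.46) and Ibsp (0.93) rose and Col1a1 (-0.14) fell, and at d5 all 6 rose. The part of these other RNAs in the changes of Lif, the receptors and Stat3 was not tested.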

How the data were processed

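The data were 18 bulk RNA-seq libraries of O9-1 cells. For each, the deposited values are unnormalized whole-number counts that the authors made for each gene, laid out as STAR writes them; the submitters' notes name STAR, featureCounts, Picard, FastQC and mm10, without versions. The reverse-strand column was used, which held 96.04% to 96.64% of stranded counts. Entries naming no gene (26.96% to 34.44% of a library), among them reads with several places, were left out. Of 55335 identifiers, 55154 matched GENCODE M21 (GRCm38), the source of names, coordinates and exon lengths for TPM.

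The test was the quasi-likelihood one of edgeR 4.0.16 (R 4.3.3) with TMM factors and filterByExpr, in 1 fit of 9 libraries per day for the 3 contrasts, and in 1 fit of 18 for differences between days. All adjusted p-values are Benjamini-Hochberg values over all genes tested, from edgeR unless DESeq2 1.42.0 is named. Standard errors (SE) came from the log2 fold change and its F statistic, as |log2 fold change|/sqrt(F). CPM values are on 1 TMM scale over 18 libraries. The labels give no separate cultures, so p-values measure the spread between these libraries, which may be technical. The 10 genes, the lists and the tests were chosen with earlier results of these data known. Named beside the 10 were Yap1 and Wwtr1, from each pathway list up to 4 called genes with the largest change, no replicate overlap and a mean level reaching 1 in log2 CPM, and the 5 genes most like Lif (log2 CPM, prior count 2). Ctf2, Il27, Ebi3, Cntf, Il31ra, Csf3r, Cntfr, Osm and Il11ra2, given by counts, and Hp, Lcn2, Jak3 in the knockdown at d2.5, and the cell type markers were named outside this rule after their values were seen. Some genes of the pathway lists that the rule would name are not reported here. The scripts were checked on simulated counts. Alternatives were RLE and upper-quartile factors, DESeq2, a filter of 10 counts in every library or none, only the 2 groups compared, all 18 libraries, unstranded counts, a replicate block and leaving out each library. Count intervals are exact (95%) and cover counting error only.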

Additional observations from a re-analysis of the deposited data

Results flagged for a closer look

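For 9 genes the effect of FGF2 differed between d5 and d2.5 by edgeR's test of the difference (d5 minus d2.5, log2), where 60.9% of all genes did. It was lower at d5 for Lif (-4.36, adjusted p = 3.19e-12) and Il11 (-2.38, adjusted p = 0.00732), and higher at d5 for Clcf1 (0.59, adjusted p = 0.000403), Lifr (0.92, adjusted p = 4.16e-10), Osmr (1.80, adjusted p = 1.02e-16), Il6st (0.49, adjusted p = 3.21e-09), Il11ra1 (1.12, adjusted p = 8.37e-10), Socs3 (0.83, adjusted p = 4.54e-08) and Stat3 (1.18, adjusted p = 6.88e-16). For 5 genes the effect of the knockdown differed by the same test, where 20.9% of all genes did: Lif (1.35, adjusted p = 0.00267), Clcf1 (0.53, adjusted p = 0.00462), Lifr (-0.37, adjusted p = 0.00402), Socs3 (0.57, adjusted p = 0.000148) and Stat3 (0.40, adjusted p = 3.86e-05). The day is also the batch of the libraries, so time and batch cannot be told apart in any of these values.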

How the results depend on the processing

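Of 764 values of the family's genes under other settings, 753 kept their direction and their side of the threshold, 3 lost and 5 gained a call and 3 turned sign; of 1269 values with 1 library left out, 1248 kept both, 6 lost and 7 gained a call and 8 turned sign. The number of family genes called, and of all genes called, stayed within 1.5 times the main count in every comparison and alternative run. The sign turned only for effects near 0 that passed no threshold. For Il6st, the difference of the knockdown effect between days became -0.014 with upper-quartile factors, -0.010 without a filter and -0.0070 with at least 10 counts in every library, and ranged from -0.021 to 0.044 over the fits without 1 library. For Il11 the knockdown effect at d2.5 ranged from -0.14 to 0.23, for Lifr the d5 value of Y/T dKD+FGF2 against Ctrl+vehicle from -0.068 to 0.020, and for Osmr the difference of the knockdown effect between days from -0.015 to 0.10 over those fits. The cause of these turns was not tested. Upper-quartile factors moved the median of all genes to 0.12 for the difference of the FGF2 effect between days and to -0.11 for Ctrl+vehicle between days, which lowers Lifr there to 0.10; the other calls are stated beside the genes. Without 1 library, Clcf1 between days in Ctrl+FGF2 gained a call (-0.22, adjusted p = 0.0461) and so did Il11 between days in Ctrl+vehicle (-1.50, adjusted p = 0.0416). The labels do not say whether replicate numbers pair the samples. Same-numbered libraries deviated together with r from -0.07 to 0.03 at d2.5 and from -0.06 to 0.11 at d5. For differently numbered libraries r was from -0.04 to 0.09 and from -0.12 to 0.05. Such correlations cannot decide whether the samples were paired. With the replicate number as a block, Stat3 passed the threshold for FGF2 at d5 (0.12, adjusted p = 0.0207) and no other family gene changed its call. Counts limit Il6 and, at d5, Il11, and 3 libraries a group limit every test.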
